A study of Mus musculus with 8 samples.

Results

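The transcripts of 8 genes that encode receptors and bridging molecules of efferocytosis, the uptake of apoptotic cells by phagocytes, were measured here. Uptake itself was not measured. The genes were Mertk, Axl, Tyro3, Gas6, Pros1, Mfge8, Stab1 and Lrp1. They were chosen by name, though with earlier results of these data known, from a table of 38293 gene identifiers. All 8 were found in the table, and all 8 were among the 13972 genes with enough counts to be tested. The libraries held polyadenylated RNA of left ventricles of C57BL/6J mice whose hearts had undergone ischemia-reperfusion, a ligature of the left anterior descending coronary artery that is later released. Every heart had received 2 injections of 10 µl of UPy-PEG hydrogel, a supramolecular polymer gel, into the myocardium and was taken 3 days later. The gel carried no drug in 4 libraries, called the hydrogel group, and antimiR-195, an inhibitor of the microRNA miR-195, in the other 4. The labels used here give no age, sex or dose, and no uninjured or gel-free heart was analysed here. Whether each of the 8 libraries is a different animal is not stated in the labels, so p-values reflect only how far these libraries differ, which may be technical.

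Apoptotic cells expose phosphatidylserine on their outer membrane, and phagocytes read it directly or through soluble bridges. Gas6 and protein S (Pros1) are vitamin K-dependent proteins that bind phosphatidylserine at one end and a receptor tyrosine kinase of the TAM family (Tyro3, Axl, Mertk) at the other. Mfge8 is a secreted bridge that binds phosphatidylserine and, through an RGD motif, integrins that contain the alpha v chain. Stabilin-1 (Stab1) is a scavenger receptor that binds phosphatidylserine without a bridge, and Lrp1 is a large endocytic receptor that recognises calreticulin on dying cells. In the infarcted heart, Mertk on macrophages is known for clearing dead cardiomyocytes.

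Total gene counts were 16872968 to 22751753 per library. Markers of the labelled tissue were abundant: 10 cardiomyocyte genes summed to 73656 to 88958 CPM (counts scaled to a fixed library size after normalization, so that libraries of unequal depth can be compared), and none of the 10 was at 0 in any library. AntimiR-195 replicate 2 stood apart, with correlations of log2 CPM across genes of 0.944 to 0.970 with the other libraries. It also had the largest share of the counting output marked as not uniquely aligned, 47.8% against 42.1% to 44.5%. Its log2 CPM, relative to the mean of all libraries, fell by 0.208 per doubling of gene length, against slopes of -0.0757 to 0.146 in the other libraries. Its 6 neutrophil markers summed to 69.1 CPM against 23.3 to 31.8 CPM elsewhere.

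The drug targets a microRNA, so each member's transcript was searched for the match to bases 2 to 8 of miR-195, the seed. The sequences below show that seed in capitals in miR-195a-5p and in relatives that share it. They also show the match in capitals in the only member that held a match of the kinds counted here. The match is read 5′ to 3′ on the transcript and pairs with the seed in the opposite direction. The microRNA sequences are from RefSeq on GRCm38.p6, where 10 mature mouse microRNA names carry this seed.
miR-195a-5p: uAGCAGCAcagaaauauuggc
miR-15a-5p: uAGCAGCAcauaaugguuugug
miR-16-5p: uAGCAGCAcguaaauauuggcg
miR-497a-5p: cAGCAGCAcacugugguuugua
Axl 3′ UTR: cctctaggttctaTGCTGCTtt
The Axl stretch is on the minus strand of chr7:25757665-25757686 in GRCm38, inside the 3′ UTR of Axl, and its match is of the class 7mer-m8. Matches TGCTGCTA, TGCTGCT and GCTGCTA were searched on the transcript strand of the longest annotated 3′ UTR of each gene. TGCTGCTA contains both shorter words and was counted once. Tyro3, Gas6 and Pros1 each held 1 still shorter match, of the class 6mer, which was not counted and whose share over all genes is not given. Of 12874 tested genes with a 3′ UTR of at least 50 bases, 3671, or 28.5%, held a match, with a median 3′ UTR length of 2288 bases in those genes against 1205 bases over all. The 3′ UTRs of the members were 134 bases in Stab1, 372 in Gas6, 641 in Mfge8, 1004 in Lrp1, 1070 in Tyro3, 1153 in Pros1, 1227 in Mertk and 1389 in Axl. A match describes the letters of the transcript and does not show binding.

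The levels of the members were compared with each other on the deposited RPKM values, which are scaled by gene length. The bridging molecules Gas6 and Mfge8 were the most abundant, at 77.8 ± 6.07 and 74.2 ± 17.5 RPKM (SD over all 8 libraries). Axl followed at 18.7 ± 2.42 RPKM, Stab1 at 17.4 ± 3.68, Lrp1 at 11.4 ± 1.58, Pros1 at 8.85 ± 1.27, Mertk at 3.07 ± 0.945 and Tyro3 at 0.681 ± 0.166. Gas6 thus lay above 95.5% of the tested genes, Axl above 82.8%, Mertk above 40.5% and Tyro3 above 13.2%. Within the TAM family the order was therefore Axl, Mertk, Tyro3 in every library.

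Neighbours in that order were compared within libraries on log2 RPKM with an exact two-sided sign-flip permutation test, adjusted over the 7 neighbours. The order came from the means of these same libraries, so the tests describe how steady it was and do not test an order set beforehand. For 5 of the 7 neighbours the higher gene led in all 8 libraries, each with an exact permutation p = 0.00781, the smallest the test can give, and adjusted p = 0.0109. Among these, Mfge8 exceeded Axl by 1.97 ± 0.358 on the log2 scale and Mertk exceeded Tyro3 by 2.15 ± 0.617 (SD, n = 8). Gas6 and Mfge8 were not separated, with Gas6 higher in 6 of 8 libraries and a difference of 0.09 ± 0.345 (permutation adjusted p = 0.484). Axl and Stab1 were not separated either, with a difference of 0.13 ± 0.254 (permutation adjusted p = 0.219). Without antimiR-195 replicate 2 all 7 neighbours differed, and the order was the same.

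**Figure D1:**
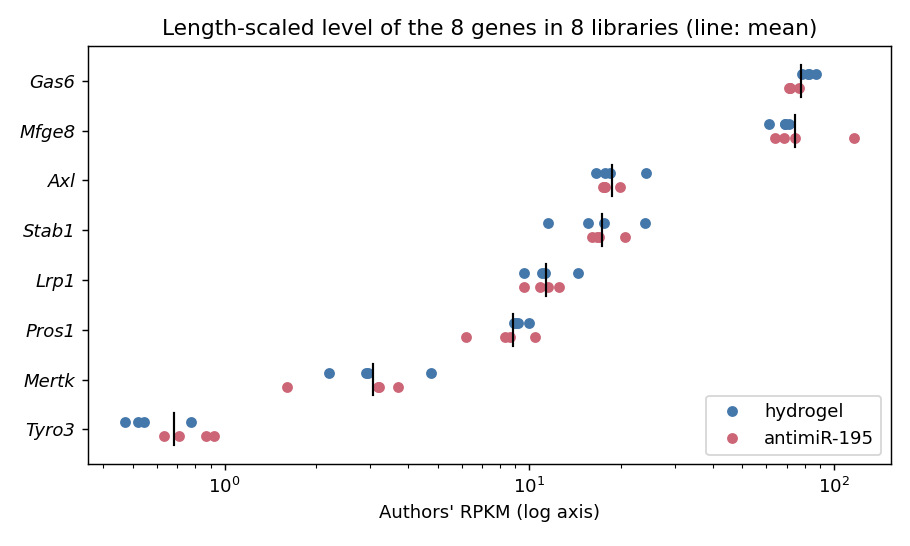
Length-scaled level of each member in each library, on a log axis of the deposited RPKM; blue points are the 4 hydrogel libraries, red points the 4 antimiR-195 libraries and black lines the means of all 8. Gas6 and Mfge8 lie at the top with means of 77.8 and 74.2 RPKM, and Tyro3 at the bottom with 0.681 RPKM.

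The contrast between the 2 groups asked whether these transcripts differed when the gel carried the inhibitor. In edgeR's quasi-likelihood test 0 of the 8 members passed an adjusted p of 0.05, and so did 0% of the 13972 genes tested. At an unadjusted p below 0.05 there were 0 members and 178 genes, 1.27% of those tested. With DESeq2 0 genes were called and 193 had an unadjusted p under 0.05, with limma-voom and sample quality weights 0 and 333, and with limma on log2(RPKM + 0.1) 0 and 180. Of the members, 5 had a negative and 3 a positive log2 fold change of antimiR-195 over hydrogel, with a median of -0.09. Over all genes tested 47.6% were negative and the median was 0.01. The adjusted p of each member was 0.9999 in edgeR's test.

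**Figure D2:**
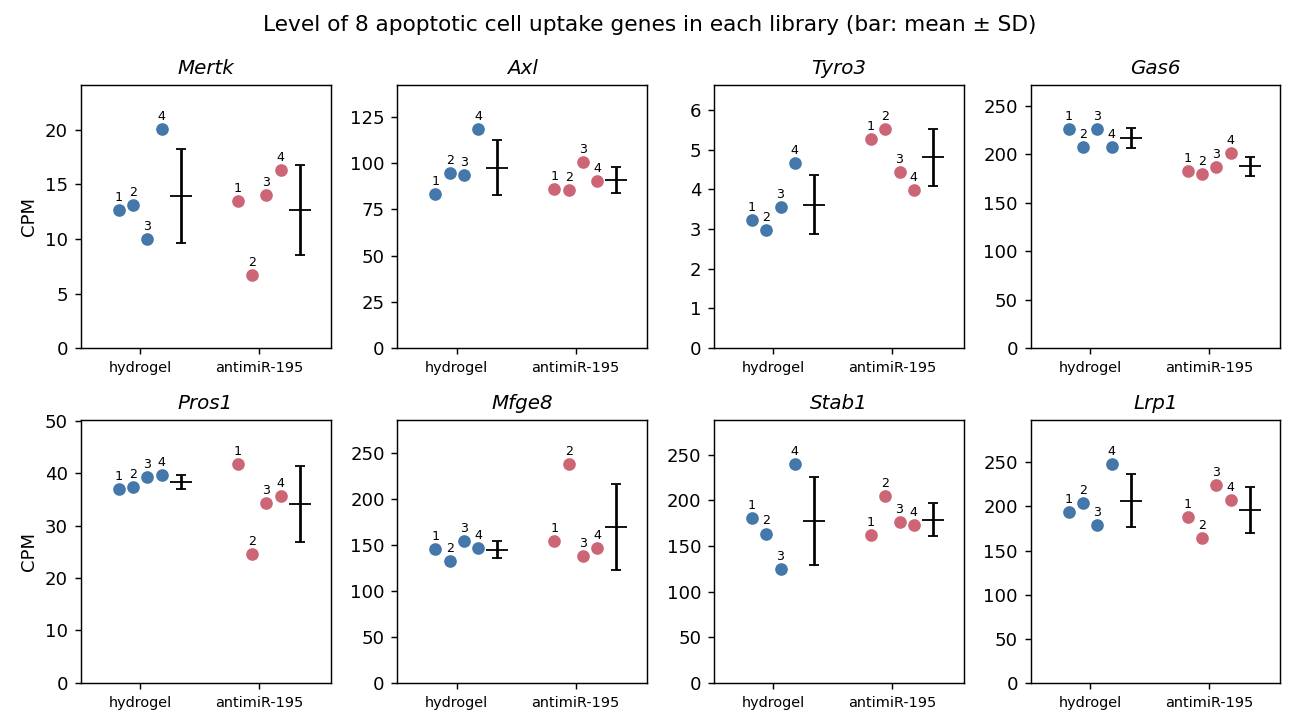
CPM of each member in every library, with the replicate number beside each point, blue for hydrogel and red for antimiR-195; black bars are the mean ± SD of 4 libraries and every axis starts at 0. The groups overlap in 7 panels; in the Gas6 panel all 4 antimiR-195 points lie below all 4 hydrogel points.

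Gas6, the ligand shared by all TAM receptors, was the member whose groups did not overlap. It measured 226, 208, 226 and 208 CPM in hydrogel replicates 1 to 4, and 182, 179, 187 and 202 CPM in antimiR-195 replicates 1 to 4. Every antimiR-195 library was thus below every hydrogel library, with the nearest pair, both numbered 4, at 201.5 CPM with antimiR-195 and 207.7 CPM in hydrogel. The means were 187 ± 9.85 and 217 ± 10.6 CPM (SD, n = 4), and the fitted log2 fold change was -0.21 ± 0.10 (SE), with a 95% confidence interval from -0.44 to 0.02. It did not pass the threshold, at an unadjusted p of 0.0666 in edgeR's test. DESeq2 gave an unadjusted p of 0.0139 and the fit with the length trend removed 0.0446, with adjusted p of 0.999 or more in both. The other alternatives, which include leaving out single libraries, gave an unadjusted p of 0.0602 to 0.137 in their own tests. Groups failed to overlap in 150 genes, 1.07% of those tested, of which 76, or 0.544%, were lower with antimiR-195. On the RPKM scale Gas6 was 78.3 to 87.5 in hydrogel and 71.4 to 76.7 in antimiR-195 libraries.

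The summed level of resident cardiac macrophage markers stands beside the Gas6 values. Of all the marker lists summed here, it was the only list whose sums did not overlap between the groups. How often a list sum fails to overlap by chance was not tested, so this separation may come from looking at many lists. The 6 markers (Lyve1, Folr2, F13a1, Cd163, Vsig4 and Cbr2), all found and none at 0 in any library, summed to 201 to 235 CPM in the hydrogel group and 170 to 193 CPM in the antimiR-195 group. As a mean of log2 CPM, which gives each marker equal weight, the same list overlapped: hydrogel replicate 2 was at -0.01 relative to the mean of all libraries and antimiR-195 replicate 4 at 0.01. In edgeR's fit 5 of the 6 were negative (median log2 fold change -0.38), and 0 passed the adjusted threshold. Their part in the Gas6 values was not tested. In whole ventricles, fewer cells of a type and less RNA per cell cannot be told apart. The 8 general macrophage markers overlapped between groups, at 1264 to 1772 CPM summed in hydrogel and 1102 to 1719 CPM in antimiR-195 libraries.

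Pros1, which encodes the anticoagulant protein S and is a ligand of Mertk and Tyro3, was even in the hydrogel group and spread in the antimiR-195 group. It measured 37.0, 37.4, 39.4 and 39.6 CPM in hydrogel replicates 1 to 4 and 41.9, 24.5, 34.4 and 35.7 CPM in antimiR-195 replicates 1 to 4. AntimiR-195 replicate 2 was the lowest and antimiR-195 replicate 1 the highest of all libraries, so the groups overlapped. The means were 34.1 ± 7.18 with antimiR-195 and 38.3 ± 1.35 CPM in the hydrogel group (SD, n = 4), and the fitted log2 fold change was -0.17 ± 0.15 with a 95% confidence interval from -0.50 to 0.16. Leaving out antimiR-195 replicate 2 gave -0.05, and leaving out antimiR-195 replicate 1 gave -0.29. Per length, Gas6 exceeded Pros1 by 8.26 to 9.65 times in hydrogel libraries and by 6.87 to 11.5 times in antimiR-195 libraries, with both of the latter extremes set by replicates 1 and 2.

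Mertk, the TAM receptor of macrophages, varied most between libraries, with a coefficient of variation of 29.8% over all 8. It measured 12.6, 13.1, 10.02 and 20.1 CPM in hydrogel replicates 1 to 4 and 13.5, 6.73, 14.1 and 16.3 CPM in antimiR-195 replicates 1 to 4. Hydrogel replicate 4 was the highest and antimiR-195 replicate 2 the lowest, and the groups overlapped widely. Counts behind these values ran from 123 to 362 per library. The means were 12.6 ± 4.12 and 13.96 ± 4.31 CPM (SD, n = 4), and the fitted log2 fold change was -0.14 ± 0.28 with a 95% confidence interval from -0.75 to 0.47. The sign rested on single libraries: leaving out antimiR-195 replicate 2 gave 0.06 and leaving out hydrogel replicate 4 gave 0.08, while it was -0.30 without antimiR-195 replicate 4 and -0.27 without hydrogel replicate 3.

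Axl, the TAM receptor found on fibroblasts, dendritic cells and activated macrophages, held the miR-195 seed match shown above. It measured 83.4, 94.7, 93.8 and 119 CPM in hydrogel replicates 1 to 4 and 85.9, 85.6, 101 and 90.4 CPM in antimiR-195 replicates 1 to 4. The highest and the lowest library were both hydrogel libraries, so all antimiR-195 values fell inside the hydrogel range. The means were 90.7 ± 7.08 and 97.6 ± 14.9 CPM (SD, n = 4), and the fitted log2 fold change was -0.11 ± 0.13 with a 95% confidence interval from -0.39 to 0.18. Without hydrogel replicate 4 it was -0.0042, without hydrogel replicate 1 it was -0.18, and without antimiR-195 replicate 3 it was -0.16. The median log2 fold change was -0.0045 over genes with a seed match and 0.01 over those without. Genes with a match also had longer 3′ UTRs, as given above, and the part of length in these medians was not tested.

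Tyro3, the TAM receptor best known from the nervous system, had the largest positive value of the members and the lowest counts, 61 to 101 per library. It measured 3.23, 2.98, 3.55 and 4.66 CPM in hydrogel replicates 1 to 4 and 5.27, 5.52, 4.43 and 3.99 CPM in antimiR-195 replicates 1 to 4. The groups overlapped through hydrogel replicate 4, which exceeded antimiR-195 replicates 3 and 4, and the other 3 hydrogel libraries were below all antimiR-195 libraries. The means were 4.80 ± 0.717 and 3.61 ± 0.742 CPM (SD, n = 4), and the fitted log2 fold change was 0.42 ± 0.19 with a 95% confidence interval from -0.01 to 0.84. It did not pass the threshold, at an unadjusted p of 0.0566 in edgeR's test. That p was 0.0170 when hydrogel replicate 4 was left out and 0.0441 when antimiR-195 replicate 4 was, with adjusted p of 0.9996 and 0.995. Leaving out any other single library gave an unadjusted p in edgeR's test of 0.0640 (antimiR-195 replicate 3) to 0.147 (hydrogel replicate 2). These were all above the 0.0566 over all libraries. On log2(RPKM + 1), a scale that understates the change of low genes, the value was 0.18.

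The proportions of the TAM receptors, set against each other per length, varied between libraries. Axl exceeded Mertk by 5.09 to 8.07 times in hydrogel and by 4.78 to 10.96 times in antimiR-195 libraries, so that ratio overlapped, with antimiR-195 replicate 2 the highest. Axl exceeded Tyro3 by 31.3 to 39.1 times in hydrogel and by 19.1 to 28.02 times in antimiR-195 libraries, which did not overlap. Mertk exceeded Tyro3 by 4.03 to 6.28 times in hydrogel and by 1.74 to 5.84 times in antimiR-195 libraries, which overlapped. These ratios were computed after the values of both genes had been seen and were not tested, and no share over other gene ratios is given. Axl itself overlapped between groups, and Tyro3 had only 61 to 101 counts per library.

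Mfge8, the integrin bridge, was even in 7 of the 8 libraries. It measured 146, 133, 154 and 147 CPM in hydrogel replicates 1 to 4 and 155, 239, 138 and 147 CPM in antimiR-195 replicates 1 to 4. AntimiR-195 replicate 2 alone stood far above the others, and without it the range over both groups was 133 to 155 CPM. The means were 170 ± 46.7 and 145 ± 8.82 CPM (SD, n = 4), and the fitted log2 fold change was 0.22 ± 0.17 with a 95% confidence interval from -0.16 to 0.60, and it was 0.0034 without antimiR-195 replicate 2. That library's neutrophil markers, at 69.1 CPM, and its length slope of -0.208 stand beside this value, and their part in it was not tested. With 2125 bases Mfge8 had the shortest gene length of the members, and Lrp1 the longest with 17717 bases. With the trend of each library with gene length removed, the log2 fold change of Mfge8 was 0.20 and, without antimiR-195 replicate 2 as well, 0.04.

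Stab1, the scavenger receptor, had almost the same mean in both groups. It measured 180, 164, 124 and 241 CPM in hydrogel replicates 1 to 4 and 162, 205, 176 and 173 CPM in antimiR-195 replicates 1 to 4. Hydrogel replicates 3 and 4 were the lowest and the highest of all 8 libraries, and the antimiR-195 values fell between them. The means were 179 ± 18.1 and 177 ± 48.3 CPM (SD, n = 4), and the fitted log2 fold change was 0.01 ± 0.18 with a 95% confidence interval from -0.39 to 0.42. The value was 0.19 without hydrogel replicate 4, -0.12 without hydrogel replicate 3, -0.06 without antimiR-195 replicate 2 and -0.02 without hydrogel replicate 2.

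Lrp1, the calreticulin receptor, is expressed by fibroblasts and smooth muscle cells as well as macrophages. It measured 194, 204, 179 and 249 CPM in hydrogel replicates 1 to 4 and 188, 164, 225 and 207 CPM in antimiR-195 replicates 1 to 4. Hydrogel replicate 4 was the highest and antimiR-195 replicate 2 the lowest library, as for Mertk. The means were 196 ± 25.9 and 207 ± 29.9 CPM (SD, n = 4), and the fitted log2 fold change was -0.08 ± 0.14 with a 95% confidence interval from -0.39 to 0.24. Leaving out hydrogel replicate 4 gave 0.02, leaving out antimiR-195 replicate 2 gave -0.01, and leaving out antimiR-195 replicate 3 gave -0.15.

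**Figure D3:**
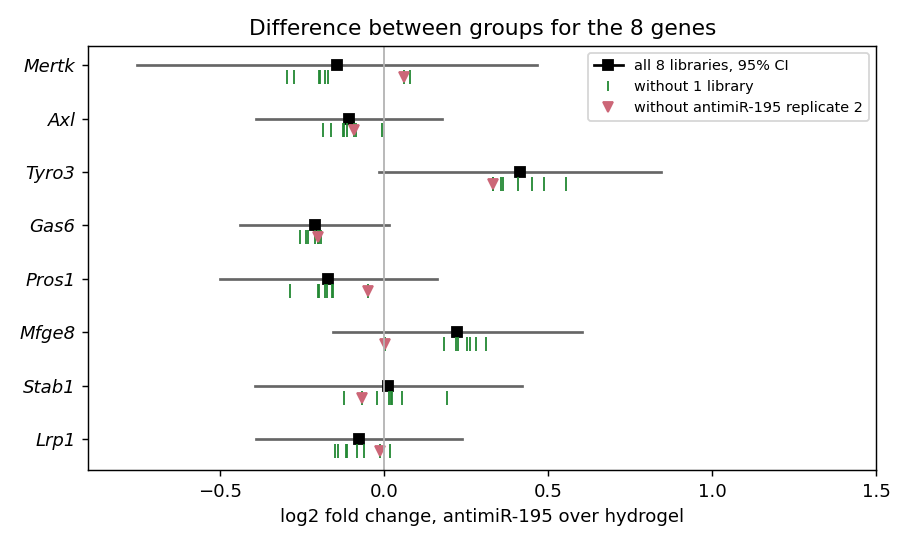
Log2 fold change of antimiR-195 over hydrogel for each member; squares are the fits on all 8 libraries, grey lines their 95% confidence intervals, green ticks the fits without 1 library and red triangles those without antimiR-195 replicate 2. Every interval includes 0, and the triangles of Mertk and Stab1 lie on the other side of 0 from their squares.

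The members are spread over the genome, and 4 overlap other annotated genes. In GRCm38, Mertk lies on chromosome 2 at 128698956 to 128802894 and Tyro3 on the same chromosome at 119797733 to 119818104, both on the plus strand. Axl lies on chromosome 7 at 25757273 to 25788705 and Mfge8 on the same chromosome at 79133768 to 79149060, both on the minus strand. Gas6 lies on chromosome 8 at 13465374 to 13494490 and Pros1 on chromosome 16 at 62854307 to 62929346. Stab1 lies on chromosome 14 at 31139013 to 31168641 and Lrp1 on chromosome 10 at 127538161 to 127621148. Gas6 overlaps Tmem255b on the other strand, which held 65 to 81 counts per library, and Stab1 overlaps Nt5dc2 on the other strand, with 470 to 721 counts. The genes that overlap Mertk and Lrp1 held 0 or 1 count. The strand setting of the counting is not given in the sources used here.

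How the members varied together was measured as correlations of log2 CPM over the 8 libraries. Of 28 pairs, 0 passed an adjusted p of 0.05 in exact two-sided permutation tests. The pair of smallest p was Mertk and Lrp1, with Pearson's r = 0.902 (exact permutation p = 0.0028, adjusted 0.0785) and Spearman's rho = 0.905 (p = 0.00456, adjusted 0.128). Without the 2 libraries farthest from the Mertk median r was 0.696. Axl and Lrp1 had r = 0.823 (exact permutation p = 0.0114, adjusted 0.159) and rho = 0.714 (p = 0.0576, adjusted 0.403), with r = 0.751 without the 2 farthest libraries. Tyro3 and Gas6 ran in opposite directions, with r = -0.81 (exact permutation p = 0.0191, adjusted 0.178) and rho = -0.857 (p = 0.0107, adjusted 0.150), and r = -0.866 without the 2 farthest. With group means subtracted that r was -0.58.

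**Figure D4:**
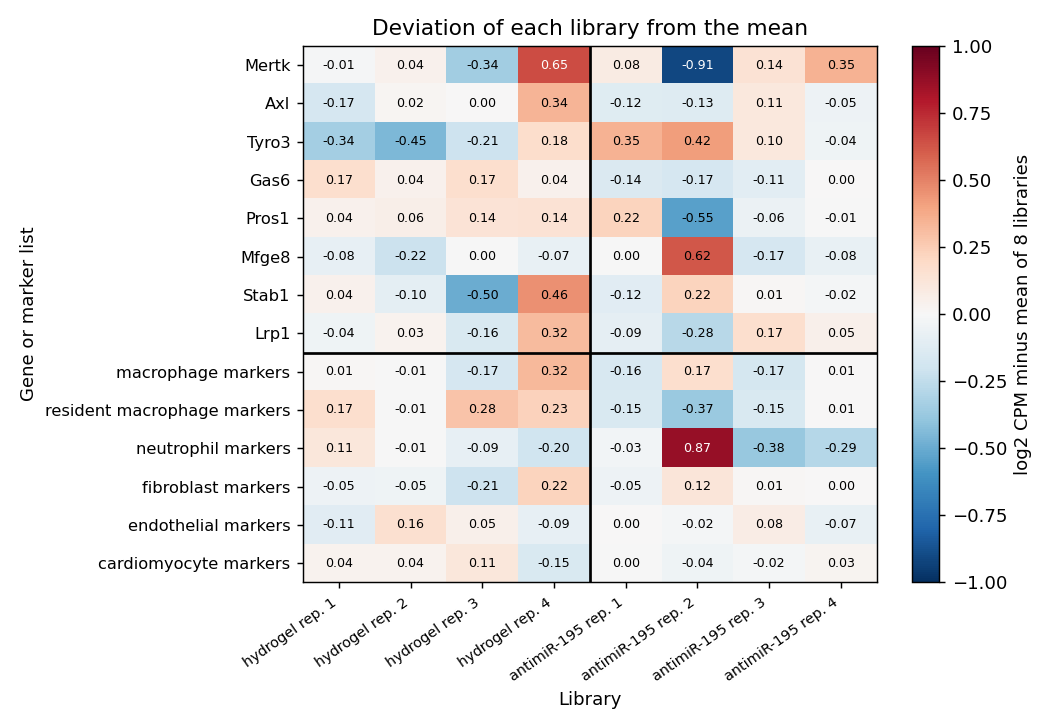
Log2 CPM of each member (top 8 rows) and mean log2 CPM of each marker list (bottom 6 rows) in each library, minus the mean of all 8 libraries; red is above and blue below that mean, and the vertical line separates hydrogel from antimiR-195. AntimiR-195 replicate 2 shows -0.91 for Mertk, -0.55 for Pros1, 0.62 for Mfge8 and 0.87 for neutrophil markers, and hydrogel replicate 4 shows 0.65 for Mertk and 0.46 for Stab1.

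Leaving out any single library kept r of Mertk and Lrp1 between 0.856 and 0.936 and that of Tyro3 and Gas6 between -0.903 and -0.737, while r of Axl and Lrp1 fell to 0.630 without hydrogel replicate 4. The extremes of several members lay in the same libraries. Hydrogel replicate 4 had the highest Mertk, Axl, Stab1 and Lrp1 of all libraries, together with the highest sum of macrophage markers, at 1772 CPM, and the lowest sum of cardiomyocyte markers, at 73656 CPM. Hydrogel replicate 3 had the lowest Stab1, the lowest sum of 8 fibroblast markers, at 4229 CPM against 5331 to 7668 CPM elsewhere, and the highest sum of cardiomyocyte markers. AntimiR-195 replicate 2 had the lowest Mertk, Gas6, Pros1 and Lrp1 and the highest Tyro3 and Mfge8.

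Each member was also set against the mean log2 CPM of macrophage, fibroblast, endothelial and cardiomyocyte markers, 32 relations in all. Stab1 followed fibroblast markers, with r = 0.975 (exact permutation p = 6.94e-04, adjusted 0.0222), and this was the 1 relation of 32 that passed. Its rho was 0.857 (exact permutation p = 0.0107, adjusted 0.343), so it did not pass by rank, and r was 0.886 without the 2 libraries farthest from the fibroblast median. Leaving out any of 6 of the 8 libraries raised its adjusted p above 0.05, to at most 0.130 without hydrogel replicate 3, with r between 0.955 and 0.998 over all 8 such fits. Stab1 had r = 0.849 with macrophage markers (exact permutation p = 0.00717, adjusted 0.0765; rho = 0.762, p = 0.0368, adjusted 0.392; r = 0.867 without the 2 farthest). With cardiomyocyte markers it had r = -0.925 (exact permutation p = 0.00466, adjusted 0.0746; rho = -0.690, p = 0.0694, adjusted 0.444; r = -0.595 without the 2 farthest).

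The relations of Lrp1 and Mertk with fibroblast markers depended on which libraries were used, and antimiR-195 replicate 2 was left out of them only after its values had been seen. Over the 7 remaining libraries Lrp1 had r = 0.930 (exact permutation, adjusted p = 0.00635) and Mertk r = 0.962 (adjusted p = 0.0349), against r = 0.455 and 0.250 over all 8 libraries (adjusted p = 0.746 and 0.788). Of all 8 libraries, the 2 farthest from the fibroblast median were hydrogel replicates 3 and 4. Without these 2, and with antimiR-195 replicate 2 kept in, r was -0.541 for Lrp1 and -0.785 for Mertk, of the opposite sign. In antimiR-195 replicate 2 fibroblast markers were 0.12 above the mean on the log2 scale, while Mertk was at -0.91 and Lrp1 at -0.28. The same library had neutrophil markers 0.87 above the mean, and their part in these values was not tested.

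The genes whose log2 CPM followed each member most closely over the 8 libraries were taken from the 10999 tested genes whose log2 CPM averaged 2 or more. They are given as a description, with no p, because each was picked as the highest of so many. For Axl they were Fap, which encodes fibroblast activation protein, at r = 0.983, and Inpp5f at 0.943, and without antimiR-195 replicate 2 the r of Fap was 0.994. For Mertk they were Cdk14 at 0.981 and Zhx3 at 0.977, for Tyro3 Rab8b at 0.929 and Sept2 at 0.925, and for Gas6 the lipid droplet gene Plin3 at 0.967 and Mospd1 at 0.961. For Pros1 they were Art3 at 0.985 and Nmnat3 at 0.984, which became 0.892 and 0.904 without antimiR-195 replicate 2. For Mfge8 they were Ptms at 0.997 and Tmem138 at 0.992. For Stab1 they were Arhgap45, a gene of blood cells, at 0.985 and Dclk1 at 0.975, and for Lrp1 Sgpl1, the sphingosine phosphate lyase, at 0.978 and Adgra2 at 0.970.

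The other genes of apoptotic cell uptake were taken as 7 lists with 93 genes, all found, of which 87 were tested. In edgeR's test 0 of the 87 passed the threshold, as did 0% of all genes, and 1 had an unadjusted p below 0.05. Their log2 fold changes were positive in 44 and negative in 43, with a median of 0.01, the same as over all genes tested. Lamp1 was the 1 gene of the 87 whose groups did not overlap, against 1.07% of all genes.

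Among 16 tested recognition receptors, 9 were positive and 7 negative, with a median of 0.05. The sign of that median turned when any one of hydrogel replicates 1 and 3 and antimiR-195 replicates 2 and 4 was left out, to between -0.051 and -0.013. Itgav, the alpha v integrin chain that binds Mfge8, was 43.9 ± 4.48 CPM with antimiR-195 and 36.2 ± 3.84 CPM in the hydrogel group (SD, n = 4), and the fitted log2 fold change was 0.28 ± 0.12 at an unadjusted p of 0.0417 in edgeR's test. Its groups overlapped, since hydrogel replicate 4 at 41.0 CPM exceeded antimiR-195 replicate 4 at 37.7 CPM. Marco, a scavenger receptor of macrophages, was 2.01 ± 0.635 against 3.07 ± 1.15 CPM, which gave -0.61 ± 0.31. as log2 fold change Cd36, a fatty acid and phosphatidylserine receptor that cardiomyocytes and endothelium also carry, was the most abundant at 1271 ± 339 against 1351 ± 77.2 CPM, with antimiR-195 replicate 2 the lowest at 814 CPM.

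Of 12 tested bridging and eat-me genes, 10 were positive and 2 negative, with a median of 0.16. Without antimiR-195 replicate 2 that median was -0.0196. Calr, the calreticulin that Lrp1 recognises, was 404 ± 151 against 316 ± 32.4 CPM, which gave 0.35 ± 0.22 as log2 fold change, and antimiR-195 replicate 2 at 628 CPM lay far above the other antimiR-195 libraries at 310 to 358 CPM. Xkr8, the scramblase that exposes phosphatidylserine in apoptosis, was 2.11 ± 0.39 against 2.82 ± 0.434 CPM, which gave -0.42 ± 0.21. as log2 fold change Of 10 find-me and do-not-eat-me genes 8 were positive, with a median of 0.09, which was -0.0014 when antimiR-195 replicate 2 was left out. Panx1, the channel that releases nucleotides from dying cells, was at 0.30 ± 0.22, Sphk1 at 0.36 ± 0.29, and Sirpa, the macrophage receptor for the do-not-eat-me signal Cd47, at -0.04 ± 0.14.

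Genes of engulfment and digestion were read in whole ventricles, so their values are not those of phagocytes alone, and none passed the threshold. Engulfment machinery had 5 of 13 positive and a median of -0.04 (0.03 if hydrogel replicate 4 is left out), with the small GTPases Cdc42 at 0.01 ± 0.12 and Rac2 at -0.17 ± 0.17 and the exchange factor Vav3 at -0.15 ± 0.15. Corpse digestion and lipid export had 6 of 16 positive and a median of -0.04. Lamp1, a lysosomal membrane protein, was 587, 558, 640 and 620 CPM in antimiR-195 replicates 1 to 4 and 689, 642, 644 and 649 CPM in hydrogel replicates 1 to 4, a log2 fold change of -0.13 ± 0.11. Those groups were separated only by the gap between 640.0 and 642.5 CPM. Abca1, the cholesterol exporter, was at -0.20 ± 0.16 and Apoe at -0.10 ± 0.24.

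Regulators were tested in the same fit. Transcription factors of uptake genes had 3 of 10 positive and a median of -0.08, with Klf2 at -0.19 ± 0.13. Sheddases and TAM feedback genes had 3 of 10 positive and a median of -0.04. Adam10, a protease that can shed Axl from the cell surface, was 70.1 ± 6.64 against 60.0 ± 4.41 CPM (SD, n = 4), and the fitted log2 fold change was 0.22 ± 0.11 at an unadjusted p of 0.0675 in edgeR's test. Socs3, a cytokine feedback inhibitor, was at 0.39 ± 0.26 and Timp3, an inhibitor of such proteases, at -0.27 ± 0.31.

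**Figure D5:**
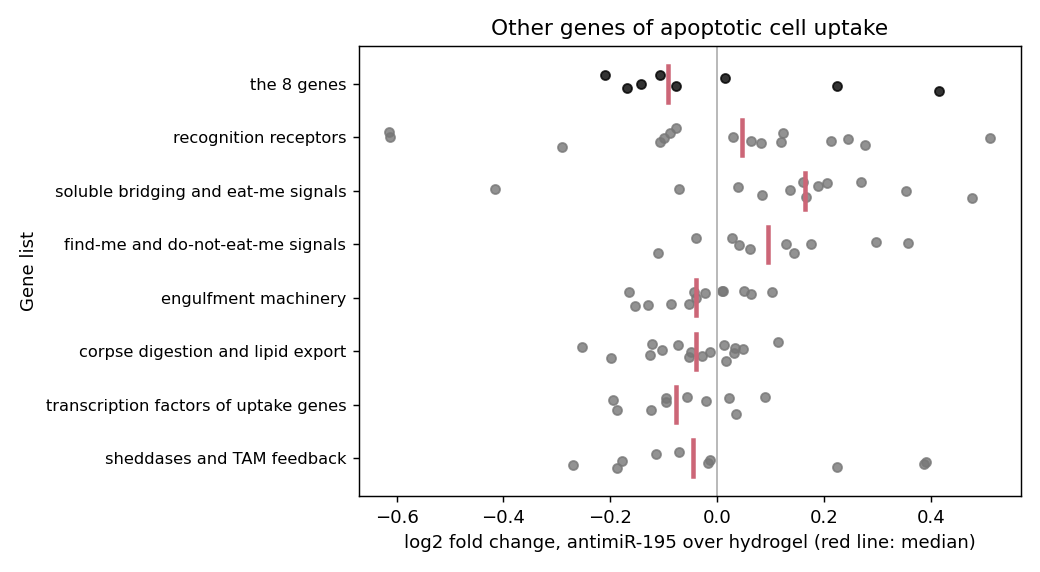
Log2 fold change of antimiR-195 over hydrogel for each tested gene of the 7 further lists (grey points) and for the 8 members (black points), with the median of each list as a red line; vertical scatter within a row has no meaning. Medians run from -0.09 for the 8 members to 0.16 for bridging and eat-me genes, and no gene passed the threshold.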

How the data were processed

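Per the labels' protocols, a TruSeq stranded mRNA kit was used on RNA extracted with TRIzol. STAR, HTSeq, DESeq and the build GRCm38 appear, without versions, in the submitters' processing notes. The authors deposited whole-number HTSeq counts per Ensembl gene, per library and as 1 table, with 0 differing cells between them, and RPKM values, whose implied gene lengths were the same in all libraries (largest relative spread 5.11e-07). Symbols came from GENCODE M21 on GRCm38, which named 36345 identifiers. HTSeq summary lines without a gene entered neither library sizes nor tests. Among them, reads outside genes were 6.38% to 7.55% of uniquely aligned reads.

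Groups came from the drug label, and replicates were numbered in accession order, which pairs nothing. Counts were filtered (filterByExpr), scaled by TMM and tested with edgeR 4.0.16 (R 4.3.3) by quasi-likelihood, with Benjamini-Hochberg adjustment over all genes tested. Alternatives used limma 3.58.1 and DESeq2 1.42.0. Log2 CPM used a prior count of 2. The median 95% half-width of a log2 fold change was 0.37 over genes whose log2 CPM averaged 0 or more. Correlations used exact permutations (numpy 2.4.6).

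The members and lists were chosen with earlier results of these data known. Named genes are the 8 members, the 2 tested genes of smallest p and the most abundant of each list, and the 2 genes closest to each member; pairs and relations are named for the 3 smallest p. A gene that this rule names is not reported here. Relations without antimiR-195 replicate 2 and the receptor ratios were chosen after values were seen.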

Additional observations from a re-analysis of the deposited data

Results flagged for a closer look

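A library far from the other 3 of its group was looked for with Dixon's test at its 95% critical value in the CPM of each member and in the summed CPM of each of 11 marker lists. Of 38 groups of 4 libraries, 3 had such a library, where chance flags about 1 in 20 groups, and all 3 were antimiR-195 replicate 2. Mfge8 was 238.8 CPM there against 137.8 to 154.8 CPM in the other antimiR-195 libraries. The neutrophil markers summed to 69.1 CPM against 23.3 to 30.7 CPM. The lymphocyte markers summed to 6.89 CPM against 2.80 to 3.35 CPM; 3 of their 8 genes were abundant enough to be tested, and Cd79a and Ncr1 had 0 counts in at least 1 library.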

How the results depend on the processing

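No gene was called under any of the 17 alternatives, 16 planned and 1 added after seeing the data (antimiR-195 replicate 2 left out of a fit without the length trend). The number of genes at unadjusted p below 0.05 was 178, and 104 to 352 without 1 library, 428 without a filter on low counts and 333 with limma-voom and sample quality weights, which were always used together. The median of all genes stayed between -0.01 and 0.02 on the log2 scale. Gas6 was negative in all 17 alternatives, from -0.25 to -0.17, and Tyro3 positive, from 0.18 to 0.56, and the smallest adjusted p of either was 0.892. Axl, Pros1 and Mfge8 also kept their signs. Without 1 library Mertk ran from -0.30 to 0.080, Stab1 from -0.12 to 0.19 and Lrp1 from -0.15 to 0.020. With weighted limma-voom Mertk was 0.12 and Stab1 -0.031, and in the added alternative they were 0.050 and -0.14; the cause was not tested. The recognition receptor median was -0.051 to 0.082 without 1 library and -0.035 in the added alternative, and that of bridging and eat-me genes was -0.042 with weighted limma-voom. Of the 32 relations with cell type lists, 1 passed over all libraries, 4 on log2(RPKM + 0.1), 3 with group means subtracted and 0 to 2 without 1 library. No paired analysis was possible because the labels give no replicate numbers. Of the members, Tyro3 had the lowest counts, at 61 to 101 per library, which limits its precision.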
